A study of Drosophila melanogaster with 4 samples.

Results

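Region 31 of chromosome arm 2L was examined as a stretch of 1 Mb, chr2L:9900001-10900000 on FlyBase release 5, cut into 1000 consecutive windows of 1 kb. The headers list sequence for 168710 whole windows of this size. The band borders of the cytological map were not used here. The stretch was set by its coordinates, with no limit on any measured value. It was chosen with earlier results of these data known. It was compared with the 18011 whole 1 kb windows of the rest of 2L from 1000001 to 20011544, which leaves out the telomere-proximal 1 Mb and the centromere-proximal 3 Mb of the arm. The values are from chromatin immunoprecipitation with sequencing (ChIP-seq) of HP2, with antibody Ab2-90, in nuclei of wild-type Oregon-R (Oregon-R-modENCODE) Drosophila melanogaster larvae at the third instar. There were 2 ChIP libraries and 2 input libraries, all from this strain and stage, and no mutant or treated group. The labels name no tissue within the larva, so the cell types behind the lists are not known. Each ChIP library has a list of enriched regions, here called clusters, called with the input of the same number, and a further combined list was made by the authors for the replicate set. Region 31 held 46 of the 4092 clusters of replicate 1, 69 of the 7017 of replicate 2 and 108 of the 12660 of the combined list, assigned by their midpoints.

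HP2 is a large chromatin protein that binds heterochromatin protein 1a (HP1a) and carries AT-hooks, short motifs that contact the minor groove of AT-rich DNA. Mutations in its gene, Su(var)2-HP2, suppress position-effect variegation, the silencing of genes placed next to heterochromatin. HP1a itself binds methylated histone H3 and lies mainly in pericentric heterochromatin and on chromosome 4. On the polytene chromosomes of larval salivary glands region 31 is a classical site of HP1a staining within the euchromatic part of 2L, far from the centromere. The question put to the data was whether HP2 clusters are denser there than along the rest of the arm, and how they are laid out.

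Clusters covered 11.8% of region 31 in replicate 1, against 3.89% of the rest of 2L. In replicate 2 they covered 20.7% of region 31, against 7.03% of the rest of 2L. The replicate lists differ in length, so each comparison was made within its own list. The cover of region 31 was 3.04-fold that of the rest of 2L in replicate 1 and 2.94-fold in replicate 2, a mean of 2.99 ± 0.08-fold (SD, n = 2). The excess over 1 was many times the spread between the replicates, although the cover itself differed 1.74-fold between them. That spread does not measure how cover varies along 2L. There, 1 Mb windows sharing no sequence with region 31 ranged from 1.01% to 11.4% in mean cover. In the combined list 30.2% of region 31 was covered, against 13.8% of the rest of 2L, or 2.19-fold. Region 31 makes up 5.26% of the sequence compared and held 14.5% of the covered bases in replicate 1, 14.0% in replicate 2 and 10.8% in the combined list. No test was run on these values, because an exact sign-flip test over 2 libraries cannot give a two-sided p below 0.5.

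Counted by window, 125 of the 1000 windows of region 31 were at least 50% covered in replicate 1, against a background of 3.9% of the windows in the rest of 2L. In replicate 2 there were 210 such windows of 1000, against 6.93% in the rest of 2L. In the combined list there were 312, against 14.1% in the rest of 2L. In both replicates at once, 109 windows of region 31 were at least 50% covered, or 10.9%, against 2.82% in the rest of 2L. The share was thus above that of the rest of 2L in all 3 lists and in the windows shared by both replicates. Neighbouring windows often lie under 1 cluster and are not independent.

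**Figure D1:**
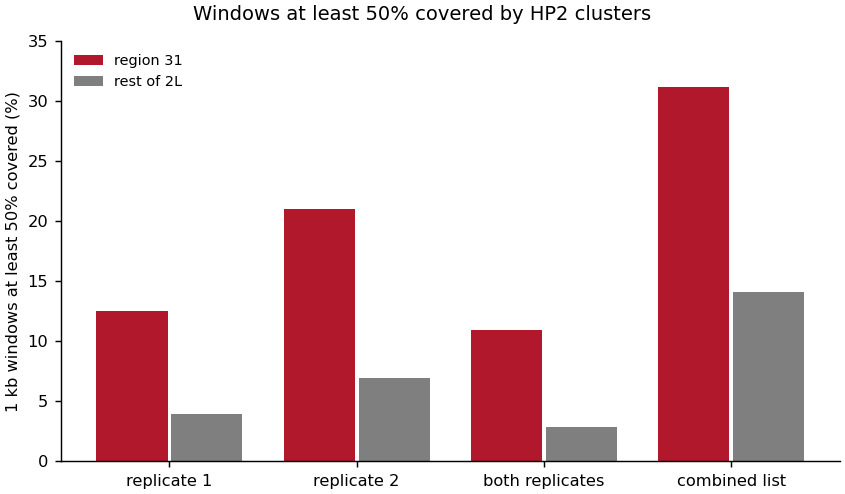
Share of 1 kb windows (vertical axis, %) that were at least 50% covered by HP2 clusters, in region 31 and in the rest of 2L, by list. Region 31 stood above the rest of 2L in every pair of bars, with 12.5% against 3.9% in replicate 1 and 21% against 6.93% in replicate 2.

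In the lists as deposited, the higher cover went with more clusters rather than with a wider typical cluster. There were 46 clusters per Mb in region 31 and 19.0 per Mb in the rest of 2L in replicate 1, and 69 per Mb and 31.5 per Mb in replicate 2. The density was 2.31 ± 0.17-fold that of the rest of 2L (SD, n = 2). The median width was 1.98 kb in region 31 and 1.87 kb in the rest of 2L in replicate 1, and 2.25 kb and 1.94 kb in replicate 2. The folds were 1.05 and 1.16, a mean of 1.11 ± 0.08-fold, so the excess of the median was little larger than the spread between replicates. Mean widths differed more, at 2.57 kb in region 31 and 2.05 kb in the rest of 2L in replicate 1, and 3.00 kb and 2.23 kb in replicate 2. With clusters closer than 1 kb merged, the mean density fold was 1.90 and the mean median width fold 1.35. The split between number and width thus depends on how covered sequence is cut into clusters. Clusters were also spaced more closely. The median gap between neighbouring clusters was 5.30 kb in region 31 and 19.3 kb in the rest of 2L in replicate 1, and 2.64 kb and 8.26 kb in replicate 2.

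The clusters were not spread evenly over region 31. Most of the cover lay in a dense stretch, with a smaller group of clusters at the distal edge of the region, a few isolated clusters on the proximal side and long free intervals between them. Of the 10 consecutive windows of 100 kb, the fifth, chr2L:10300001-10400000, was the most densely covered, with 33.3% in replicate 1 and 68.6% in replicate 2. The window before it, chr2L:10200001-10300000, had 33.1% and 43.2%, and the one after it, chr2L:10400001-10500000, had 19.2% and 29.2%. These 3 windows ranked 1, 2 and 5 by mean cover among the 190 windows of 100 kb from 1000001 on. The first window, chr2L:9900001-10000000, was covered to 12.3% and 29.6% and ranked 8. By contrast chr2L:10100001-10200000 held no cluster in either replicate, and chr2L:10600001-10700000 held none in replicate 1 and 1 in replicate 2.

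**Figure D2:**
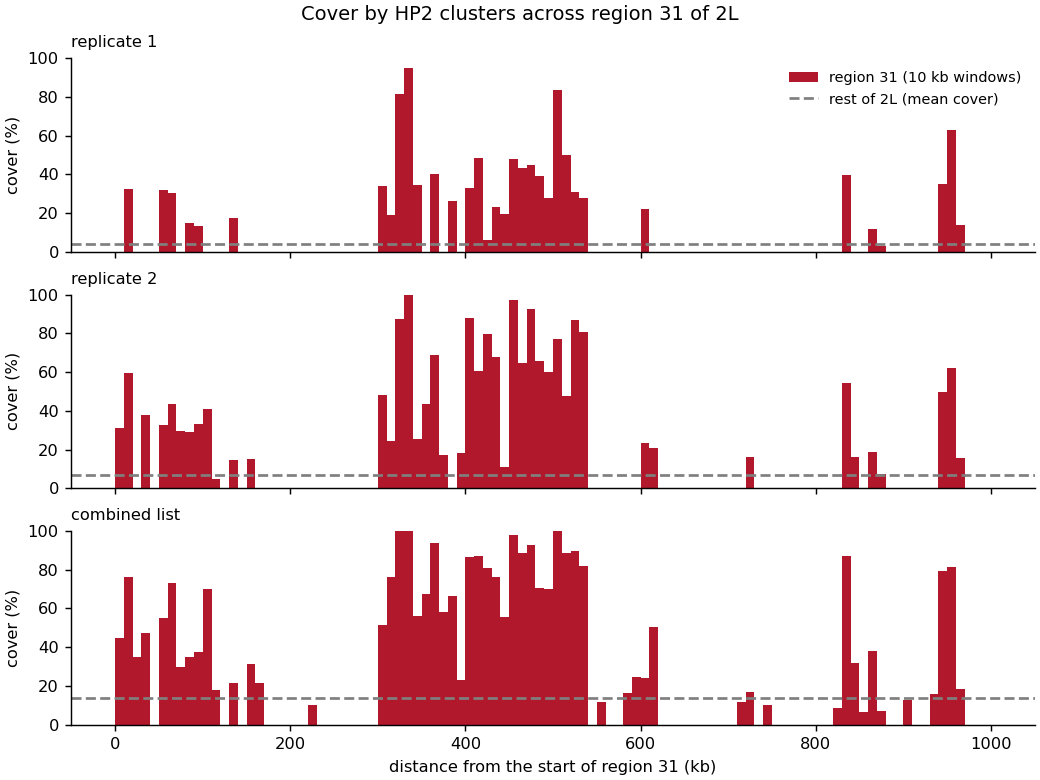
Cover by HP2 clusters (vertical axes, %) in the 100 windows of 10 kb of region 31, by distance from its start (horizontal axis, kb), in replicate 1, replicate 2 and the combined list; the dashed line is the mean cover of the rest of 2L in the same list. The bars are highest in 1 broad group in the middle of the region, with smaller groups near both ends, and 54 windows are at 0 in both replicates.

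The dense stretch was delimited, after its values were seen, by its first and last cluster within chr2L:10200001-10500000. It ran from 10200902 to 10432759 in replicate 1, with 31 clusters over 232 kb, and from 10200046 to 10438511 in replicate 2, with 39 clusters over 238 kb. The distal border thus lay within 1 kb in both replicates. Over the outer limits of both, chr2L:10200046-10438511, the cover was 35.9% in replicate 1, 59.1% in replicate 2 and 78.0% in the combined list. Chromosome 4, the small autosome that is largely heterochromatic, had 39.3%, 64.3% and 68.7% in the same lists. Chromosome 4 was taken whole, whereas the stretch was cut to its outermost clusters. The uncut 300 kb of chr2L:10200001-10500000 was covered to 28.5%, 47.0% and 63.8%, below chromosome 4 in each list. The dense stretch held 72.3% of the covered bases of region 31 in replicate 1 and 68.3% in replicate 2. On its distal side no cluster was called for 167 kb in replicate 1 and 142 kb in replicate 2, and on its proximal side for 72.9 kb and 67.2 kb. The combined list reached further on the proximal side, with 60 clusters out to 10494076.

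Without the 300 kb of chr2L:10200001-10500000, the remaining 700 kb of region 31 had a cover of 4.69% in replicate 1, or 1.21-fold the rest of 2L. In replicate 2 it had 9.36%, or 1.33-fold (mean of the replicates 1.27 ± 0.09-fold, SD, n = 2). The 300 kb itself was covered to 28.5% and 47.0%, or 7.01 ± 0.46-fold the rest of 2L. It was picked as the densest 300 kb of the region, so a high value follows in part from the choice. The densest 300 kb found in the same way in the rest of 2L, chr2L:4800001-5100000, had a cover of 10.2% in replicate 1, with 22.7% in replicate 2. Within the 300 kb, 20 of 30 windows of 10 kb had some cover in both replicates and 6 had none in either. In the remaining 700 kb these numbers were 13 and 48 of 70.

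In windows of 10 kb, a mean cover of the replicates of at least 50% was reached by 13 of 100 windows of region 31, against 1.05% of the 1801 windows in the rest of 2L. Of these 13, 12 lay in the dense 300 kb, and the other was chr2L:10850001-10860000. In replicate 1 alone, only those of chr2L:10220001-10240000, chr2L:10400001-10410000 and chr2L:10850001-10860000 reached 50%. The others had 27.6% to 48.2% there and passed through replicate 2, so the contrast rests in part on that list. In the rest of 2L some windows passed in both replicates, such as chr2L:18700001-18710000 (70.4% in each). Others passed through replicate 2, such as chr2L:11990001-12000000 (45.8% and 91.4%). Of the 10 windows of 10 kb with the highest mean cover in the 2L sequence compared, 5 were in region 31. The highest 2 adjoin each other. The window chr2L:10230001-10240000 had a cover of 94.98% in replicate 1 and 100% in replicate 2, and chr2L:10220001-10230000 to 81.6% and 87.3%. The longest run of such windows was 40 kb, chr2L:10350001-10390000, covered to 43.8% in replicate 1, 79.9% in replicate 2 and 87.5% in the combined list. It was made up of 6 clusters of 1.51 to 4.81 kb in replicate 1, with scores of 0.432 to 1.00, and of 8 clusters of 1.66 to 8.74 kb in replicate 2, with scores of 0.454 to 1.84. The combined list had 9 clusters there. The length of this run depended on the limit and the list, at 90 kb with a limit of 25% and 20 kb with 75%, and at 20 kb in replicate 1 alone and 60 kb in replicate 2 alone. In the rest of 2L each of the 19 windows that passed stood alone.

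The widest continuous HP2 domain of region 31 lay near the distal end of the dense stretch. In the combined list it was a single cluster at chr2L:10219416-10242232, 22.8 kb wide, which was both the widest and the highest-scoring combined cluster in the 2L sequence compared, with a score of 1.89. The score is the authors' own value for each cluster. The sources used here do not give its scale, and it is compared only between clusters of the same list. Replicate 2 resolved the domain into 2 clusters. The first, chr2L:10219328-10224508, was 5.18 kb wide with a score of 1.84. The second, chr2L:10225779-10242211, was 16.4 kb wide with a score of 2.47, and it was the widest and second highest-scoring replicate 2 cluster of the 2L sequence compared. Replicate 1 had 5 clusters over the same domain. Their highest scores were 1.66 at chr2L:10229203-10234723 and 1.41 at chr2L:10235226-10241866, which are neighbours. The 16 consecutive 1 kb windows of chr2L:10226001-10242000 were at least 50% covered in both replicates, with a mean of 94.9% in replicate 1 and 100% in replicate 2. The longest such run in the rest of 2L was 6 kb.

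A second prominent site lay at the proximal end of the dense stretch. It was a cluster at chr2L:10402397-10409723 in replicate 1 (7.33 kb, score 1.45) and at chr2L:10402319-10410309 in replicate 2 (7.99 kb, score 2.64). It was the widest replicate 1 cluster and the highest-scoring replicate 2 cluster of the 2L sequence compared. The combined list had it at chr2L:10401038-10412044 (11.0 kb, score 1.86). Close by, the cluster at chr2L:10421626-10424617 was 2.99 kb wide and had the highest score of region 31 in replicate 1, 1.74. Its replicate 2 partner at chr2L:10420623-10426346 scored 2.09 and its combined partner at chr2L:10420660-10426214 scored 1.75. Of the remaining leading clusters, chr2L:10262354-10264817 scored 1.47 in replicate 1. The cluster at chr2L:10383962-10389152 scored 1.84 in replicate 2 and its combined partner at chr2L:10383494-10389134 scored 1.41. The combined cluster chr2L:10350724-10358148 scored 1.35. All of these leading clusters lay in the dense stretch and overlapped clusters of both replicates, their own included. Of the 5 widest combined clusters of region 31, chr2L:10323256-10331196 (7.94 kb, score 0.427) also lay in it, and chr2L:10732704-10740224 (7.52 kb, score 0.7996) lay outside.

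**Figure D3:**
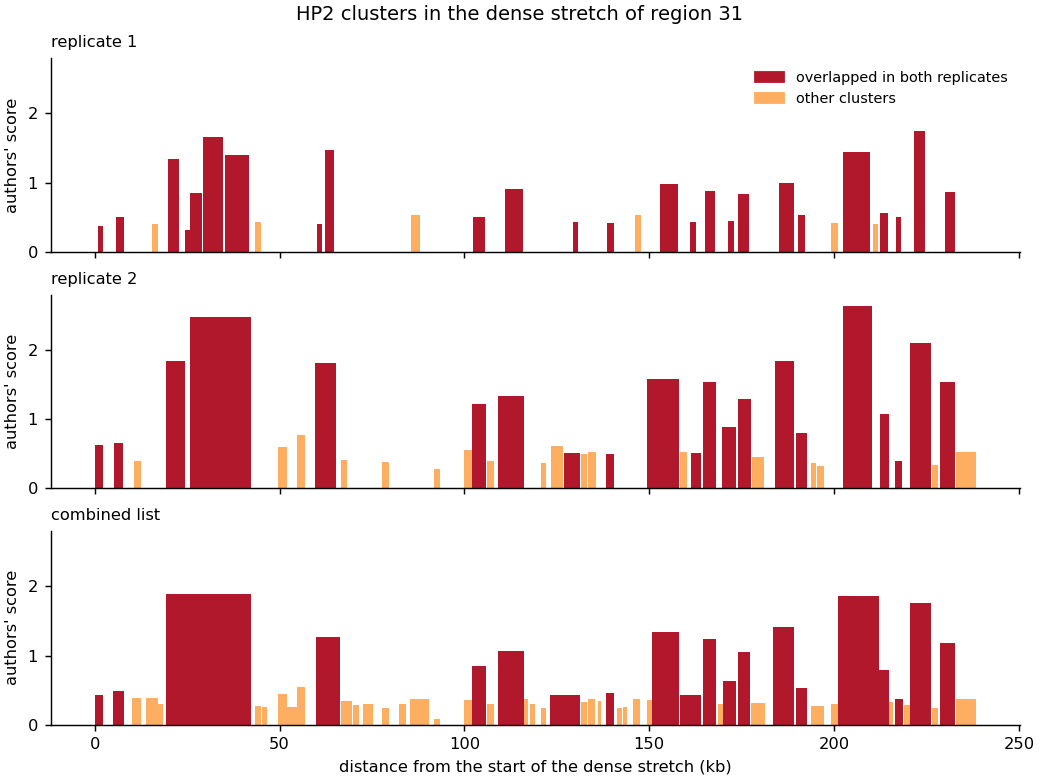
HP2 clusters in the dense stretch of region 31, by distance from its start (horizontal axis, kb); each bar spans 1 cluster and its height is the authors' score within that list (vertical axes), with clusters overlapped in both replicates in red and all others in orange. The tallest bars of replicate 2 and the combined list stand near the left end and near the right end of the stretch, with further wide bars in the middle, such as the replicate 2 cluster of 8.74 kb, and no orange bar of a replicate exceeds a score of 0.774.

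Outside the dense stretch, clusters of both replicates lay toward either end of the region. Those given here were chosen after their values were seen. At the distal edge the strongest was chr2L:9955497-9958711 in replicate 1, with a score of 0.933, and chr2L:9955760-9959017 in replicate 2, with 1.25. On the proximal side, the 4 highest-scoring clusters shared by the replicates stood at chr2L:10505672-10507896, chr2L:10735049-10737583, chr2L:10849065-10851901 and chr2L:10855634-10861369 in the coordinates of replicate 1. Their replicate 1 scores were 0.806, 0.773, 0.719 and 0.597. The highest scores of the replicate 2 clusters that overlap them were 1.36, 1.37, 1.02 and 1.02. The last of these was 5.74 kb wide, the only cluster of at least 5 kb outside the dense 300 kb in the replicate 1 list of the region. The longest interval without any cluster in either replicate was 141 kb, chr2L:10059001-10200000, followed by chr2L:10518001-10624000 and chr2L:10627001-10732000, of 106 and 105 kb.

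The sequence just beyond the region was not covered like its dense stretch. The 100 kb on the distal side, chr2L:9800001-9900000, had a cover of 2.91% in replicate 1 and 3.85% in replicate 2, and the 100 kb on the proximal side, chr2L:10900001-11000000, to 7.27% and 7.88%. Over 500 kb on each side the cover was 4.34% and 7.23% distally and 4.92% and 6.00% proximally. The 700 kb of region 31 outside its dense 300 kb had 4.69% and 9.36%. That lay between these 500 kb flanks in replicate 1 and above both in replicate 2. The rest of 2L as a whole was covered to 3.89% and 7.03%.

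In the lists as deposited the median scores of region 31 and the rest of 2L were close, and the upper quartiles lay further apart. The median score was 0.538 in region 31 and 0.499 in the rest of 2L in replicate 1, and 0.522 and 0.519 in replicate 2. The difference of 0.021 ± 0.025 (SD, n = 2) was smaller than the spread between replicates. This depended on which clusters entered. The mean difference was 0.274 with the replicate 2 list cut to the length of the replicate 1 list. That cut left replicate 1 as it was, at 0.039, so the rise came from replicate 2 alone. In the higher-scoring 50% of each list the mean difference was 0.296. Both settings pick clusters by the score that is then compared. In the combined list the medians were 0.350 in region 31 and 0.353 in the rest of 2L. The upper quartile was 0.856 in region 31 and 0.599 in the rest of 2L in replicate 1, and 1.02 and 0.646 in replicate 2. For the combined list it was 0.435 in region 31 and 0.404 in the rest of 2L. Of the 10 highest-scoring clusters of the 2L sequence compared, region 31 held 6 in replicate 1, 5 in replicate 2 and 3 in the combined list, and all of these lay in the dense 300 kb. Of the 50 highest it held 16, 15 and 12. Its share of all clusters there was 11.9% in replicate 1 (exact Clopper-Pearson 95% interval 8.81 to 15.5%), 10.8% in replicate 2 (8.53 to 13.5%) and 8.11% in the combined list (6.70 to 9.71%). Intervals of this kind cover counting error only.

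Wide clusters were over-represented in the same way. Of the 46 clusters of region 31 in replicate 1, 4 were at least 5 kb wide, or 8.70% (2.42 to 20.8%), against 3 of 342 in the rest of 2L, or 0.877% (0.181 to 2.54%). In replicate 2 it was 9 of 69, or 13.0% (6.14 to 23.3%), against 11 of 568, or 1.94% (0.971 to 3.44%). The 9 of replicate 2 all lay in the dense 300 kb, as did 3 of the 4 of replicate 1. In the combined list 13 of 108 clusters were this wide, against 37 of 1223.

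Score and width went together. Over the clusters of region 31, Spearman's rho between them was 0.75 in replicate 1 (46 clusters) and 0.75 in replicate 2 (69 clusters), and in the rest of 2L it was 0.62 (342 clusters) and 0.70 (568 clusters). Both measures come from the same call, so this is a description. In the replicate lists clusters narrower than 2 kb scored at most 0.551 in region 31 and 0.679 in the rest of 2L in replicate 1, and at most 0.562 and 0.741 in replicate 2. Among the clusters of at least 2 kb, a limit chosen after these values were seen, the median score was 0.871 for the 22 in region 31 and 0.616 for the 146 in the rest of 2L in replicate 1, and 0.824 for 40 and 0.661 for 261 in replicate 2. These medians lay closer in the combined list, at 0.439 for 52 in region 31 and 0.418 for 386 in the rest of 2L, and clusters narrower than 2 kb scored up to 0.431 and 1.37.

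**Figure D4:**
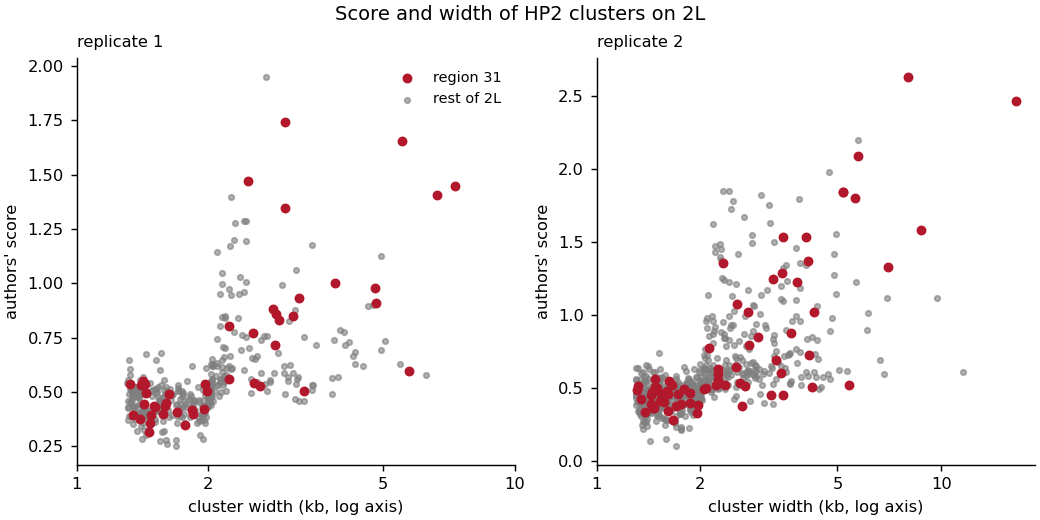
Authors' score (vertical axes) against width (horizontal axes, kb, log scale) of HP2 clusters in region 31 and in the rest of 2L, in replicate 1 and replicate 2; each point is 1 cluster. Points of region 31 lie among the rest of 2L below 2 kb and make up many of the points that are both wide and high, up to 16.4 kb and a score of 2.64 in replicate 2.

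Most replicate 1 clusters were also seen in replicate 2, while about as many replicate 2 clusters had a partner as had none. Of the 46 replicate 1 clusters of region 31, 39 or 84.8% (71.1 to 93.7%) shared at least 1 bp with a replicate 2 cluster, against 258 of 342 or 75.4% (70.5 to 79.9%) in the rest of 2L. In the other direction 34 of 69 or 49.3% (37.0 to 61.6%) were overlapped, against 253 of 568 or 44.5% (40.4 to 48.7%). The intervals of region 31 and the rest of 2L overlap in both directions, and region 31 also has the higher cover in both lists. Neighbouring clusters are not independent, so these intervals cover counting error only. The replicate 1 share in region 31 was 65.2% with the replicate 2 list cut to the length of the replicate 1 list. At a reciprocal overlap of at least 50% it was 63.0%. Neither was computed for the rest of 2L, so the contrast was not tested under these settings. Of the bases covered in replicate 1, 86.2% were also covered in replicate 2 in region 31, against 73.0% in the rest of 2L. Of the bases covered in replicate 2, 49.4% were also covered in replicate 1 in region 31, against 40.3% in the rest of 2L, and of those covered in either replicate 45.8% and 35.1% were covered in both. Over the 100 windows of 10 kb of region 31, Spearman's rho between the replicates was 0.83, and 54 windows were at 0 in both. Over the 1801 windows of the rest of 2L rho was 0.68, with 1264 windows at 0 in both. Windows share neighbouring clusters and are not replicates.

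Clusters called in only 1 replicate had lower median widths and scores than those called in both. A partner needs only 1 shared bp, so the rule itself favours wide clusters, and score rose with width. In replicate 1 the 7 clusters of region 31 without a partner had medians of 1.59 kb in width and 0.437 in score, and the 39 with a partner had 2.23 kb and 0.551. In replicate 2 the 35 without a partner had 1.70 kb and 0.461, and the 34 with a partner had 3.38 kb and 1.02. Single clusters went against these medians, such as chr2L:10433113-10438511, 5.40 kb wide and called in replicate 2 only, with a score of 0.522. The highest-scoring of them in replicate 1 were chr2L:10346261-10347667 with 0.535, chr2L:10285464-10288093 with 0.527 and chr2L:9965011-9966434 with 0.444. In replicate 2 they were chr2L:9976614-9979550 with 0.852, chr2L:10254756-10256871 with 0.774 and chr2L:10323329-10326768 with 0.606. All 46 replicate 1 clusters and all 69 replicate 2 clusters of region 31 were overlapped by a combined cluster. Of the 108 combined clusters, 32 or 29.6% (21.2 to 39.2%) overlapped clusters of both replicates, against 244 of 1223 or 20.0% (17.7 to 22.3%) in the rest of 2L. A further 38 or 35.2% (26.2 to 45.0%) overlapped none in either replicate, against 613 or 50.1% (47.3 to 53.0%). The medians of those 38 were 1.26 kb in width and 0.305 in score, and the 32 seen in both had 3.86 kb and 0.736.

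Between 1000001 and 20011544 on 2L, no 1 Mb window that shares no sequence with region 31 was as densely covered. Among 162 windows of 1 Mb moved in steps of 100 kb that share no sequence with it, mean cover of the replicates ranged from 1.01% to 11.4% with a median of 5.19%, and region 31 had 16.2%. The highest of these windows, chr2L:6000001-7000000, had 7.69% in replicate 1 and 15.2% in replicate 2, against the 11.8% and 20.7% of region 31. Region 31 also ranked 1 against these windows in each replicate and in the combined list. Of all 181 windows, those that share sequence with it included, it ranked 2 by mean cover, 2 in replicate 1, 3 in replicate 2 and 4 in the combined list. The highest mean cover, 16.4%, was that of chr2L:9500001-10500000, which holds the same dense stretch. The windows overlap each other, so the rank is a description. In the bodies of other arms, the densest 1 Mb windows had a mean cover of 10.8% on 3L and 11.4% on 3R. On the X the densest was chrX:1200001-2200000 with 16.6%, and 2 windows there lay above region 31. Its cover was 7.85% in replicate 1 and 25.3% in replicate 2, so it lay below region 31 in replicate 1 and above it in replicate 2.

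**Figure D5:**
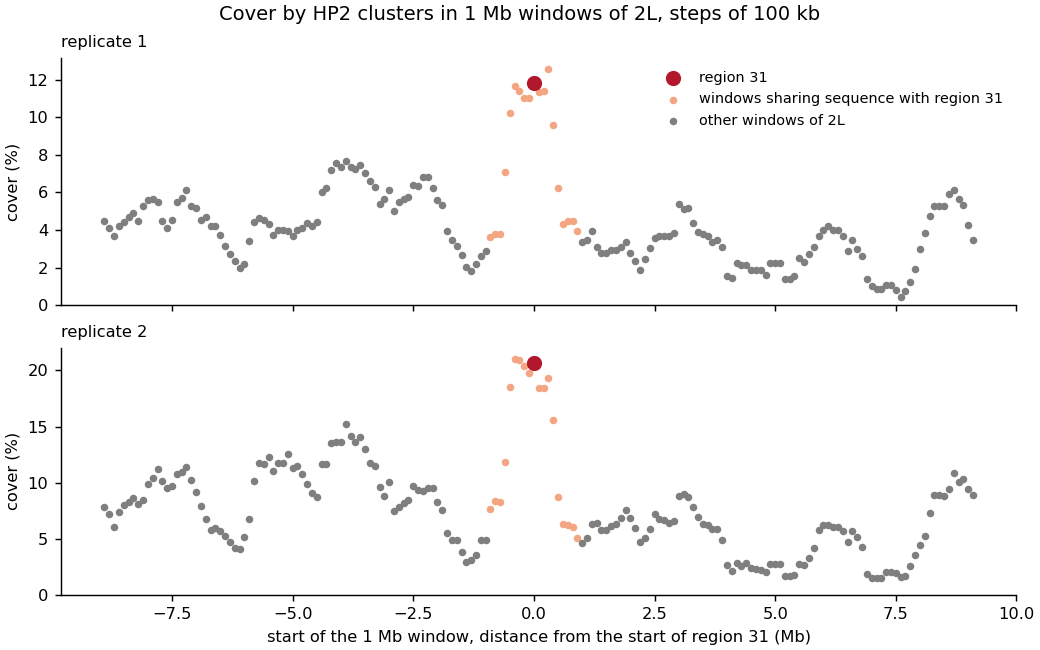
Cover by HP2 clusters (vertical axes, %) in 1 Mb windows of 2L moved in steps of 100 kb, by the distance of the window's start from that of region 31 (horizontal axis, Mb), in replicate 1 and replicate 2; the large point is region 31, light points share sequence with it and grey points do not. Region 31, at 11.8% and 20.7%, lies above all grey points, whose highest values are 7.69% and 15.2%.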

How the data were processed

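HP2 ChIP-seq libraries of replicates 1 and 2 were each called by the authors with their own input. Reads were aligned with Bowtie 0.12.7, per the submitters' processing notes. The sources used here name neither the caller of the clusters nor its threshold, the scale of its score or how the combined list was built. The deposited score of each cluster, from 0.187 to 3.53 in replicate 1, was used only to rank and compare clusters of the same list, and the median difference found within each replicate list was then averaged. Per the file headers, positions refer to FlyBase release 5, and they count from 1. The lists hold no read counts, so library depth is unknown, and regions that could not be mapped are not marked. Low cover can therefore mean no call or no mappable sequence. Whether the replicates are separate collections of larvae is not given, so their spread may be technical.

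Cover is the percentage of bases under clusters, each base counted once. Clusters were assigned by midpoint, and 1 cluster of replicate 2 crossed the lower border. The last 544 bp before the upper limit fill no whole window and were left out of window counts. Values were computed with Python 3.11.15, numpy 2.4.6, pandas 2.3.3 and scipy 1.17.1, and the counting was checked on simulated lists. Named clusters are the 5 highest-scoring of each list, the 5 widest combined ones, those of the longest block and the 3 highest seen in only 1 replicate. Those outside the dense stretch, and a wide one seen in replicate 2 only, were added after their values were seen. The members, lists and this rule were chosen with earlier results of these data known. Genes, AT content and sequences of the region were not analysed here.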

Additional observations from a re-analysis of the deposited data

How the results depend on the processing

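Each result was recomputed under alternatives, of which those without the dense 300 kb were chosen after the data were seen. In 45 of 75 recomputations the value moved by no more than the SD between replicates, a count by no more than 1.5 times, or the overlap share stayed within its 95% interval. This count overstates stability. The cover, density, width and score results are means of 2 replicates, and leaving 1 out cannot move such a mean beyond their SD. For the longest block that SD was 28.3 kb, so a change from 40 to 20 kb also counted as unmoved. The cover fold, 2.99 in the report, stayed above 1 in all 10 alternatives run on it. It was 4.73 in the higher-scoring 50% of each list, 3.25 with the replicate 2 list cut to the length of the replicate 1 list, 2.64 without the widest combined cluster, 2.57 against the bodies of 2L, 3L, 3R and X, 2.67 with borders 100 kb further out and 1.27 without the dense 300 kb. The density fold was 3.23 in the higher-scoring 50% and 1.90 with clusters closer than 1 kb merged. It was 1.97 against the bodies of 2L, 3L, 3R and X and 1.24 without the dense 300 kb. The median width fold was 1.33 in the higher-scoring 50%, 1.20 with lists of equal length, 1.35 after merging and 0.90 without the dense 300 kb. The median score difference, as a mean of the replicates, depended on the list. It was 0.296 in the higher-scoring 50%, 0.274 with lists of equal length and -0.0057 against the bodies of 2L, 3L, 3R and X. Windows at least 50% covered in both replicates numbered 71 in the higher-scoring 50%, 60 at full cover, 204 with windows of 500 bp, 20 with windows of 5 kb and 29 without the dense 300 kb. With 1 replicate left out the count is that of a single list, 125 in replicate 1 and 210 in replicate 2, and not one over both. The share of replicate 1 clusters overlapped was 100% in the higher-scoring 50%, 65.2% with lists of equal length and 63.0% at a reciprocal overlap of 50%. The longest block, 40 kb in the report, was 90 kb at a limit of 25%, 20 kb at 75%, in the higher-scoring 50% and with lists of equal length, 25 kb with windows of 5 kb, and 20 to 60 kb with 1 replicate left out. The rank among all 1 Mb windows was 2 to 3 with 1 replicate left out and 54 without the dense 300 kb, where the rank among windows that share no sequence with the region was 53. In the 6 other alternatives run on it that rank was 1, as in the report. The cause of these shifts was not tested. No paired analysis was possible because the inputs that share replicate numbers with the ChIP libraries enter only through the authors' calls. AT content and gene starts were not run, since no release 5 genome or annotation was used. With no read counts, depth sets an unknown limit on which clusters could be called.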
